A study of Mus musculus with 18 samples.

Results

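The 33 genes described here carry glucose from the cell surface to lactate or belong to the cell's response to low oxygen. They were chosen as a list of symbols, mapped to Ensembl identifiers on the mouse genome build GRCm38 with the GENCODE M21 annotation, and each symbol had 1 identifier. They are 33 of the 49315 genes counted. By role they are the glucose transporter Slc2a1, 12 genes of the preparatory steps of glycolysis, 5 of the payoff steps, 5 that set the fate of pyruvate and lactate, 3 of oxygen sensing and 7 targets of the hypoxia response. RNA came from bone marrow-derived macrophages (BMDMs) of mice on a C57BL/6J background. The sample labels call the genotypes WT and HDAC3 KO. Per the study's methods, the controls are HDAC3 f/f, with loxP sites flanking exon 7 of Hdac3, and the knockout animals (M-HDAC3-/-) carry the same floxed alleles with Cre under the Lyz2 (LysM) promoter. As a driver, that promoter is active in myeloid cells, and deletion can be incomplete within them. Under each label BMDMs were left untreated, given apoptotic cells (ACs) or given non-apoptotic cells (NACs), with 3 libraries in each of the 6 groups. The ACs were K562 cells, a human leukaemia line, after 15 min of UV-B, and the NACs were K562 cells without it. Cocultures lasted 45 min, and the washed macrophages were kept for 5 h before RNA was taken. The methods name 3 animals per group, but the labels do not tie a library to an animal, so p-values measure the spread between these libraries.

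Glycolysis splits glucose into pyruvate in a preparatory phase that spends ATP and a payoff phase that returns it, and lactate dehydrogenase then turns pyruvate into lactate, which leaves the cell through monocarboxylate transporters. HIF-1, a factor of an alpha subunit that is degraded when oxygen is plentiful and a stable beta subunit, binds short DNA elements and switches on many of the same glycolytic genes along with genes for vessel growth and mitophagy. Macrophages lean on this programme when they are activated, and they take up more glucose when they engulf dying cells.

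The targeted gene did not separate the labels. Hdac3 lay between 3.38 and 48.7 CPM (counts per 1000000 after TMM scaling) in the 9 libraries labelled WT and between 4.66 and 74.6 CPM in the 9 labelled HDAC3 KO, and these counts cover the whole gene and not exon 7. The lowest library untreated, with NACs and with ACs had 3.38, 11.6 and 7.12 CPM under the WT label. Under the HDAC3 KO label the lowest had 11.4, 4.66 and 10.1 CPM in that order. The group medians were 32.0, 44.0 and 29.7 CPM and then 38.7, 34.0 and 17.9 CPM. Low Hdac3 thus occurred in single libraries under both labels, and the cause was not tested. The genotype is therefore given below as the label. Library totals ran from 4704491 to 26421267 counts, with a median of 16477929. The HDAC3 KO untreated library 1 stood apart: it had the smallest total, 13.6% of its counts lay on genes that are not protein-coding against 1.65% to 5.46% in the other libraries, and its median correlation with the other libraries across genes was the lowest, at 0.912. All 10 macrophage markers had counts in every library, with a summed level of 6139 to 19870 CPM, although Cd163 stayed at or below 2.92 CPM. The 10 B cell markers summed to 30.5 to 136 CPM, the 10 fibroblast and stroma markers to 8.88 to 367 CPM and the 12 granulocyte markers to 263 to 1335 CPM. In bulk RNA, fewer cells of a kind and less RNA per cell cannot be told apart.

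The stretches of 250 bases before the RefSeq start sites (GRCm38.p6) were searched for the core of the hypoxia-response element, ACGTG or GCGTG, on both strands. A CACGTG holds ACGTG on each strand and counts as 2 matches. All 33 genes had windows, 47 in all, and 39 of the 47 (83.0%) held at least 1 core, against 38.6% of all 32817 windows of this length and 44.0% of the 21230 windows of protein-coding genes. For ACGTG alone the shares were 53.2% and 16.6%. Because the list was chosen as glycolysis and hypoxia-response genes, this excess may come with the choice and is not a test. Some windows of Aldoa, Eno1 and Pfkm overlap and hold the same match more than once. The windows of all genes were not matched to the members for GC content. Every window of Gpi1 and of Tpi1 lacked both cores in these 250 bases. Hif1a, which encodes the oxygen-regulated subunit of HIF-1, and Bnip3, which encodes a mitophagy receptor, are shown because both passed the test in the same direction in the untreated comparison of the labels, and Ldha (lactate dehydrogenase A) and Hk2 (hexokinase 2) are shown because Ldha passed in several comparisons and Hk2 in the comparison with ACs, a choice made after their values were seen. Capitals mark the cores on either strand, so CACGT and CACGC are cores of the opposite strand. The windows are chr12:73907617-73907866 on the plus strand for Hif1a, chr7:138909507-138909756 on the minus strand for Bnip3, chr7:46845554-46845803 on the plus strand for Ldha and chr6:82774455-82774704 on the minus strand for Hk2.
Hif1a: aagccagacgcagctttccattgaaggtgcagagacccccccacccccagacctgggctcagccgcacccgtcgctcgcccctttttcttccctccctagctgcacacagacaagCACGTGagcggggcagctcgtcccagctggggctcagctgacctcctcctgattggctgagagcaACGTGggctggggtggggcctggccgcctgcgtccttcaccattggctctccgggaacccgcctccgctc
Bnip3: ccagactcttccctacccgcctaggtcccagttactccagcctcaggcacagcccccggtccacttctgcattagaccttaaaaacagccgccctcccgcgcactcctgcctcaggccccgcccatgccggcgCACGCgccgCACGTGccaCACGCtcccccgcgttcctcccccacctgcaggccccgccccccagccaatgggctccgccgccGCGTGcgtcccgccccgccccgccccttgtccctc
Ldha: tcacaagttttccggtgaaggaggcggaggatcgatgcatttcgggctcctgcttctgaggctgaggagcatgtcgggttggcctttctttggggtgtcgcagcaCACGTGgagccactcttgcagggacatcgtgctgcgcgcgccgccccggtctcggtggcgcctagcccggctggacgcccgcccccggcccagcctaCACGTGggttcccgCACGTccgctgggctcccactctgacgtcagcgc
Hk2: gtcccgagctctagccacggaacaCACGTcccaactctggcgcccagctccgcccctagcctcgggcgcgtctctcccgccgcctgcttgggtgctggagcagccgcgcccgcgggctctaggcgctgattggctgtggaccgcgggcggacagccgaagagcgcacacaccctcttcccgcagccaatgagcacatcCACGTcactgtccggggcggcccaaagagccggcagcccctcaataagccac
Hif1a, Bnip3 and Ldha each held the palindrome CACGTG, which Hk2 lacked in this window. The Ldha window shown held 5 matches of ACGTG, and the other Ldha window (chr7:46846832-46847081) held none and 1 match of GCGTG. Of the others, the Hif1a window held 3 matches of ACGTG and the Hk2 window 2, both on the opposite strand. The Bnip3 window held 2 matches of ACGTG and 3 of GCGTG. A match is a description of the letters and not of binding.

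Compared per kilobase of counted gene length, the payoff enzyme Gapdh, which oxidises glyceraldehyde 3-phosphate, had the highest level, with a median of 929 CPM per kb over the 18 libraries. The aldolase Aldoa followed at 621, the pyruvate kinase Pkm at 425, the triose phosphate isomerase Tpi1 at 376 and Ldha at 177 CPM per kb. The other payoff enzymes stood at 168 for the enolase Eno1, 163 for the phosphoglycerate kinase Pgk1 and 96.8 CPM per kb for the phosphoglycerate mutase Pgam1. In the preparatory phase Hk3 had 138, Gpi1 118, Hk2 39.4 and Pfkl 29.8 CPM per kb, and Hk1, Pfkp, Pfkm, Pfkfb3, Pfkfb4 and Aldoc lay between 1.39 (Aldoc) and 8.55 (Pfkfb4). Slc2a1 had 9.12 CPM per kb. Downstream of pyruvate the lactate exporter Slc16a3 had 27.6, while Pdk1, Pdk3 and Slc16a1 had 1.13, 2.02 and 1.02 CPM per kb. Hif1a stood at 7.24, Egln1, a prolyl hydroxylase that marks the subunit for degradation, at 3.43, the second hydroxylase Egln3 at 1.01 and the growth factor Vegfa at 7.08 CPM per kb. Of the other hypoxia targets P4ha1 had 14.8, Ddit4 5.64, Bnip3 3.65, the disulfide oxidase Ero1l 2.32 and Ankrd37 0.818 CPM per kb. The peptide hormone precursor Adm was at the floor, with 0 to 0.519 CPM, and was the 1 member that did not pass the count filter in any comparison. The 33 members together took 0.814% to 2.06% of the counts of a library. Gapdh has 101 near-identical other genes in the annotation (95% identity over at least 300 bases), 97 of them pseudogenes, and 0.535% of the summed CPM of Gapdh and these copies lay on the copies. The phosphofructokinase Pfkp shares a stretch of at least 300 bases with 1 other gene, Pitrm1, which is not a pseudogene. Pitrm1 took 13.8% of their summed CPM, which is its whole level and no measure of Pfkp reads counted elsewhere. Whether reads were split between the 2 genes was not tested.

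Several steps are carried by more than 1 isozyme, and their shares were compared as CPM per kb. Of the 3 hexokinases, which phosphorylate glucose, Hk3 held a median of 71.1% over the 18 libraries, Hk2 26.4% and Hk1 3.62%. This order was broken in 4 libraries, all labelled HDAC3 KO. In untreated library 1 Hk2 led at 76.1%, and Hk1 exceeded Hk2 in untreated library 2 (4.98% against 4.37%), untreated library 3 (10.9% against 9.79%) and ACs library 3 (10.6% against 4.16%). Among the phosphofructokinases, which commit the sugar to glycolysis, Pfkl held 73.8%, Pfkp 15.6% and Pfkm 10.1%. Aldoa made up 99.7% of aldolase and Slc16a3, the lactate exporter MCT4, 96.5% of the pair of monocarboxylate transporters with Slc16a1. Of the bifunctional regulators of phosphofructokinase among the members, Pfkfb4 held 76.3% and Pfkfb3 23.8%. In the pair of prolyl hydroxylases among the members Egln1 held 80.6% and Egln3 19.4%. In the pair of pyruvate dehydrogenase kinases Pdk3 held 65.2% and Pdk1 34.8%. These pairs leave out Egln2 and Pdk2, which are not members. Egln2 had a median of 174 CPM against 12.3 for Egln1, and Pdk2 26.3 CPM against 8.76 for Pdk1 and 5.17 for Pdk3. The orders among the members had exceptions as well. Pfkfb3 led in HDAC3 KO ACs library 1 (53.5%), and Pdk1 in HDAC3 KO NACs library 2 (55.7%) and untreated library 1 (55.2%). Pfkm exceeded Pfkp in HDAC3 KO untreated library 1 (6.27% against 4.86%) and WT ACs library 2 (10.3% against 9.22%).

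**Figure D1:**
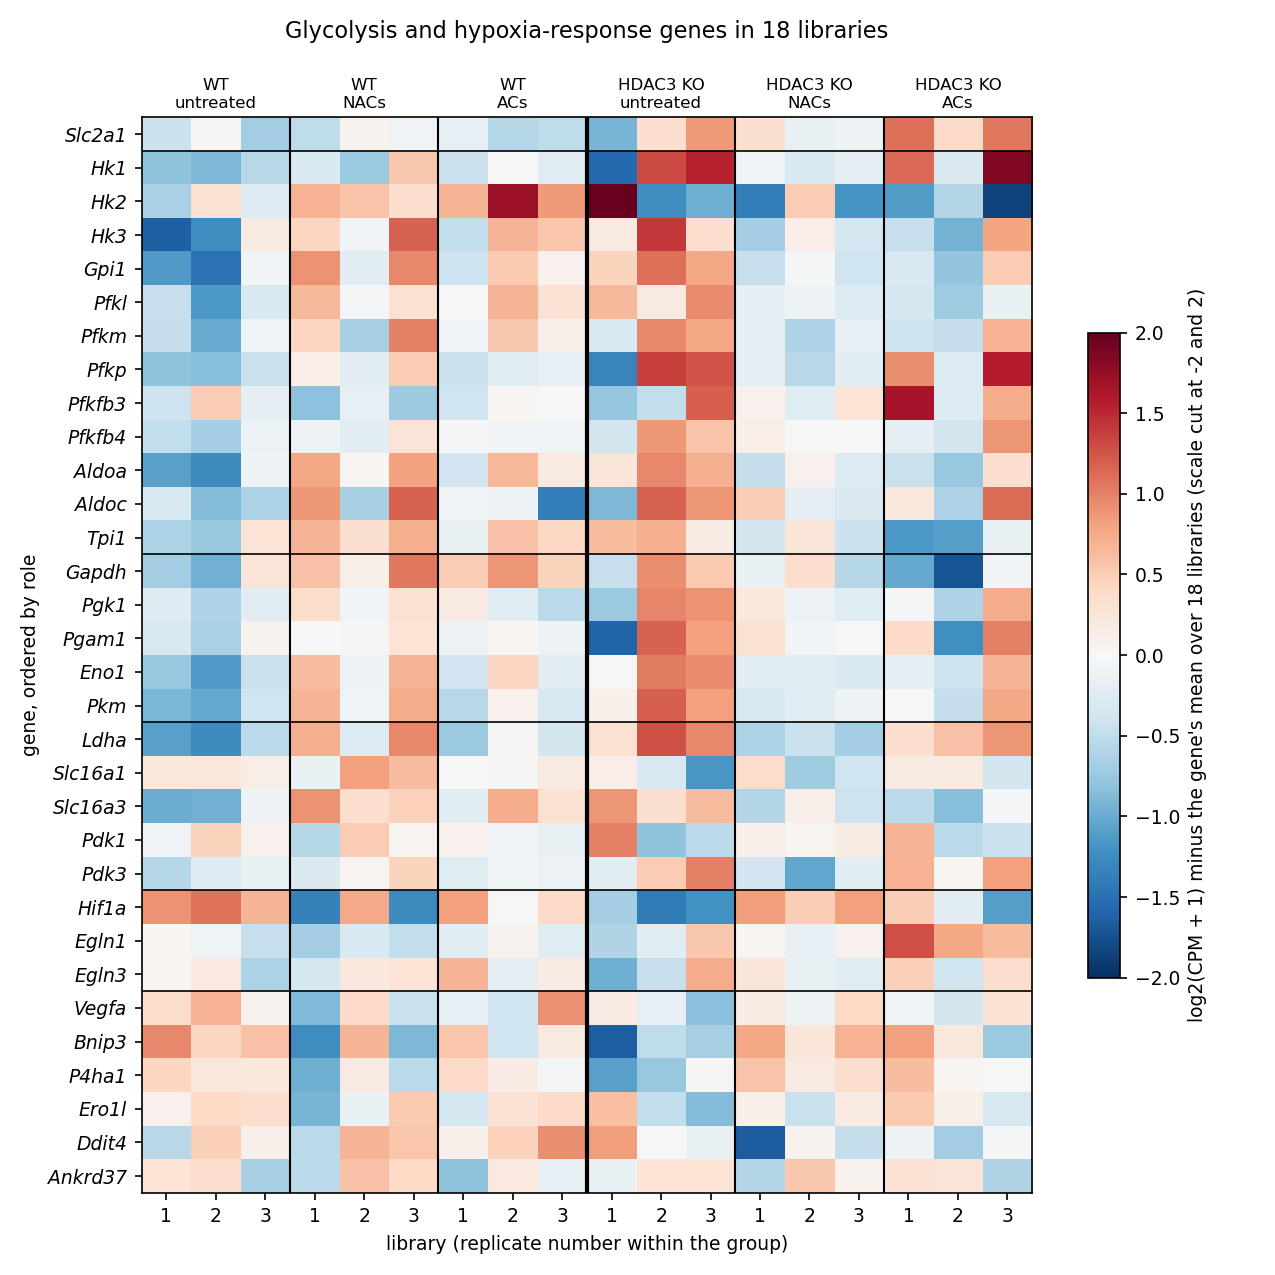
Level of 32 genes in each of the 18 libraries as log2(CPM + 1) minus the gene's mean over the libraries, with columns grouped by label and treatment and rows by role (Adm, at the floor, is left out). Red is above and blue below the mean. Glycolytic enzymes are mostly blue in the WT untreated libraries and red in HDAC3 KO untreated libraries 2 and 3, in WT NACs libraries 1 and 3 and in HDAC3 KO ACs library 3, where Hif1a and Bnip3 are blue.

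The comparison of the labels in AC-treated macrophages, from which the paper drew its candidate genes, asked which genes differ with HDAC3 once dying cells have been engulfed. 1 of the 32 members tested passed the threshold of an adjusted p of 0.05 (edgeR's quasi-likelihood test, Benjamini-Hochberg over all genes), where 3.75% of the 12304 genes tested did and 2.96% were lower. That gene was Hk2, a hexokinase that docks on mitochondria (ENSMUSG00000000628, chr6:82725025-82774454, minus strand). It measured 365, 756 and 411 CPM in the 3 libraries labelled WT and 104, 151 and 62.5 CPM in those labelled HDAC3 KO. Each library labelled HDAC3 KO lay below each labelled WT, and the log2 fold change was -2.31 ± 0.47 (± is the SE of the fit throughout), at an adjusted p of 0.019. The call was lost without HDAC3 KO ACs library 1 (-2.26, adjusted p = 0.314) and in a fit of all 18 libraries (-2.27, adjusted p = 0.159), and the number of members called was 5 without library 2, where 1693 of all genes passed, and 2 without library 3 of that group. With the GC and length offset 5 members passed, which were Hk2 (-2.58), Gapdh, Tpi1, Slc2a1 and Pdk3. No share of all genes is given for that fit, so this count does not set the members apart. Elane among 11 granulocyte markers (-2.26 ± 0.57) and Nfe2 among 5 erythroid markers (-2.08 ± 0.49) were also lower, while the granulocyte sum was 417 to 1037 CPM under the WT label and 484 to 845 CPM under the HDAC3 KO label. The macrophage sum, 9313 to 11270 CPM under the WT label and 14880 to 16940 CPM under the HDAC3 KO label, did not overlap, although 0 of the 10 macrophage markers was called by edgeR, and the B cell sum was 31.4 to 75.3 CPM and 70.7 to 136 CPM. Their part in the Hk2 difference was not tested.

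The other members leaned in both directions with ACs. Gapdh had the next lowest fold change, -1.48 ± 0.45 with an adjusted p of 0.0682, and Tpi1 had -1.11 ± 0.42 with 0.12. Hk1, the hexokinase of most tissues, had the highest, 1.28 ± 0.46 with an adjusted p of 0.105. The opposite leaning of Hk1 and Hk2 appeared in their share of the hexokinases, since Hk1 held 6.25% to 13.1% in libraries labelled HDAC3 KO and 2.20% to 3.49% in those labelled WT. Slc2a1, the glucose transporter GLUT1, measured 30.1, 22.5 and 23.6 CPM under the WT label and 74.2, 44.5 and 71.4 CPM under the HDAC3 KO label. Those groups did not overlap, yet the fold change of 1.26 ± 0.40 missed the threshold with an adjusted p of 0.0733. Pfkp stood at 1.14 ± 0.44 with an adjusted p of 0.121. Leaving out single libraries gave 0.77 to 1.74 for Hk1 and 0.71 to 1.56 for Pfkp. In 9 of the 32 members the groups did not overlap, 4 of them higher and 5 lower under the HDAC3 KO label, while 28.3% of all genes tested did not overlap, 14.8% higher and 13.5% lower. The median log2 fold change over the members was 0.01, and over all genes it was -0.01.

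In untreated macrophages Ldha, Hif1a and Bnip3 differed between the labels. These were 3 of 32 members past the threshold, where 11.6% of the 12101 genes tested passed, so the count does not set the members apart. Ldha was higher under the HDAC3 KO label, as were 3.04% of all genes, and Hif1a and Bnip3 were lower, as were 8.56%. Ldha (ENSMUSG00000063229, chr7:46841475-46855627, plus strand) measured 300.0, 267 and 437 CPM in libraries labelled WT and 790.5, 1536 and 1237 CPM in those labelled HDAC3 KO. Each value under the HDAC3 KO label exceeded each under the WT label, and edgeR's quasi-likelihood test put the difference at 1.76 ± 0.44 on the log2 scale (adjusted p = 0.0322). Hif1a (ENSMUSG00000021109, chr12:73901375-73947530, plus strand) went the other way, from 58.9, 67.5 and 50.7 CPM under the WT label to 19.1, 11.1 and 13 CPM under the HDAC3 KO label. Its groups were well apart, at -2.17 ± 0.42 (adjusted p = 0.0192). Bnip3 (ENSMUSG00000078566, chr7:138890836-138909519, minus strand) was low throughout, at 14.3, 9.61 and 10.8 CPM and 1.51, 4.54 and 3.98 CPM in the same order, and again the groups did not overlap. Its difference was -1.81 ± 0.50 (adjusted p = 0.0385). P4ha1, a collagen prolyl 4-hydroxylase subunit, was at 73.1, 63 and 62.6 CPM against 24.9, 31.7 and 54.8 CPM, without overlap, but its fold change of -0.95 ± 0.42 missed the threshold with an adjusted p of 0.117. Over the alternative analyses its log2 fold change ran from -1.43 to -0.009.

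The glycolytic enzymes had higher estimates under the HDAC3 KO label without passing the test one by one. All 12 preparatory genes and all 5 payoff genes had positive log2 fold changes, with medians of 1.38 and 0.84. With library totals as the scaling, and with base composition (GC) and gene length modelled as an offset, 11 of the 12 preparatory genes stayed positive, as did 5 and 4 of the payoff genes. The preparatory median was then 0.87 and 0.63, and the payoff median 0.32 and 0.73, while the median over all genes was 0.06 as reported, -0.42 with library totals and 0.10 with the offset. Of the members, 16 of 32 had an unadjusted p under 0.05, as did 37.2% of all genes, and the groups of 10 did not overlap, as for 40.9% of all genes. Among them Gpi1, the glucose phosphate isomerase, had 356, 281 and 749 CPM under the WT label and 1067, 1671 and 1340.0 CPM under the HDAC3 KO label. The lowest of the latter lay above the highest of the former, and the fold change was 1.51 ± 0.47 with an adjusted p of 0.0513. Hk2 had the largest estimate, 2.10 ± 0.96 with an adjusted p of 0.132, and it rested on 1 library. It measured 144, 281 and 189.5 CPM under the WT label and 2715, 95.4 and 116 CPM under the HDAC3 KO label. HDAC3 KO untreated library 1 was above every other library of the series, and libraries 2 and 3 were below all 3 labelled WT. Without that library the Hk2 difference turned to -1.14, with an adjusted p of 0.0139. Hk1 stood at 1.62 ± 0.61 with an adjusted p of 0.0821.

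These counts changed with single libraries and with an offset that models GC content and gene length together. Without HDAC3 KO untreated library 1, 24 members and 5887 genes in all passed the test, and without any other of the 6 libraries none did. Over these 6 fits the log2 fold changes kept their direction and ran from -2.48 to -2.02 for Hif1a, 1.49 to 1.94 for Ldha and -2.12 to -1.60 for Bnip3, with adjusted p of up to 0.0872, 0.155 and 0.144. The mean GC content of the counted genes, weighted by counts, was 52.5% to 53.0% in WT untreated libraries and 54.2% to 55.3% in HDAC3 KO untreated libraries. With the GC and length offset 0 members passed (edgeR's quasi-likelihood test, as for 0 of all genes), and Hif1a, whose transcripts are 41.6% GC, moved to -0.77, while Ldha, at 51.8% GC, stood at 1.55 and Bnip3, at 50.9% GC, at -1.69. The offset changes both properties together, so their parts cannot be told apart. Lyz2, the lysozyme gene whose promoter drives the Cre, was also lower under the HDAC3 KO label (-1.94 ± 0.55, adjusted p = 0.0425). It was the 1 called of 10 macrophage markers, whose sum overlapped (10710 to 19190 CPM under the WT label and 6139 to 18500 CPM under the HDAC3 KO label). The B cell sum did not overlap, at 30.5 to 56.5 CPM and 60.3 to 119 CPM. The part of these cells in the member differences was not tested.

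**Figure D2:**
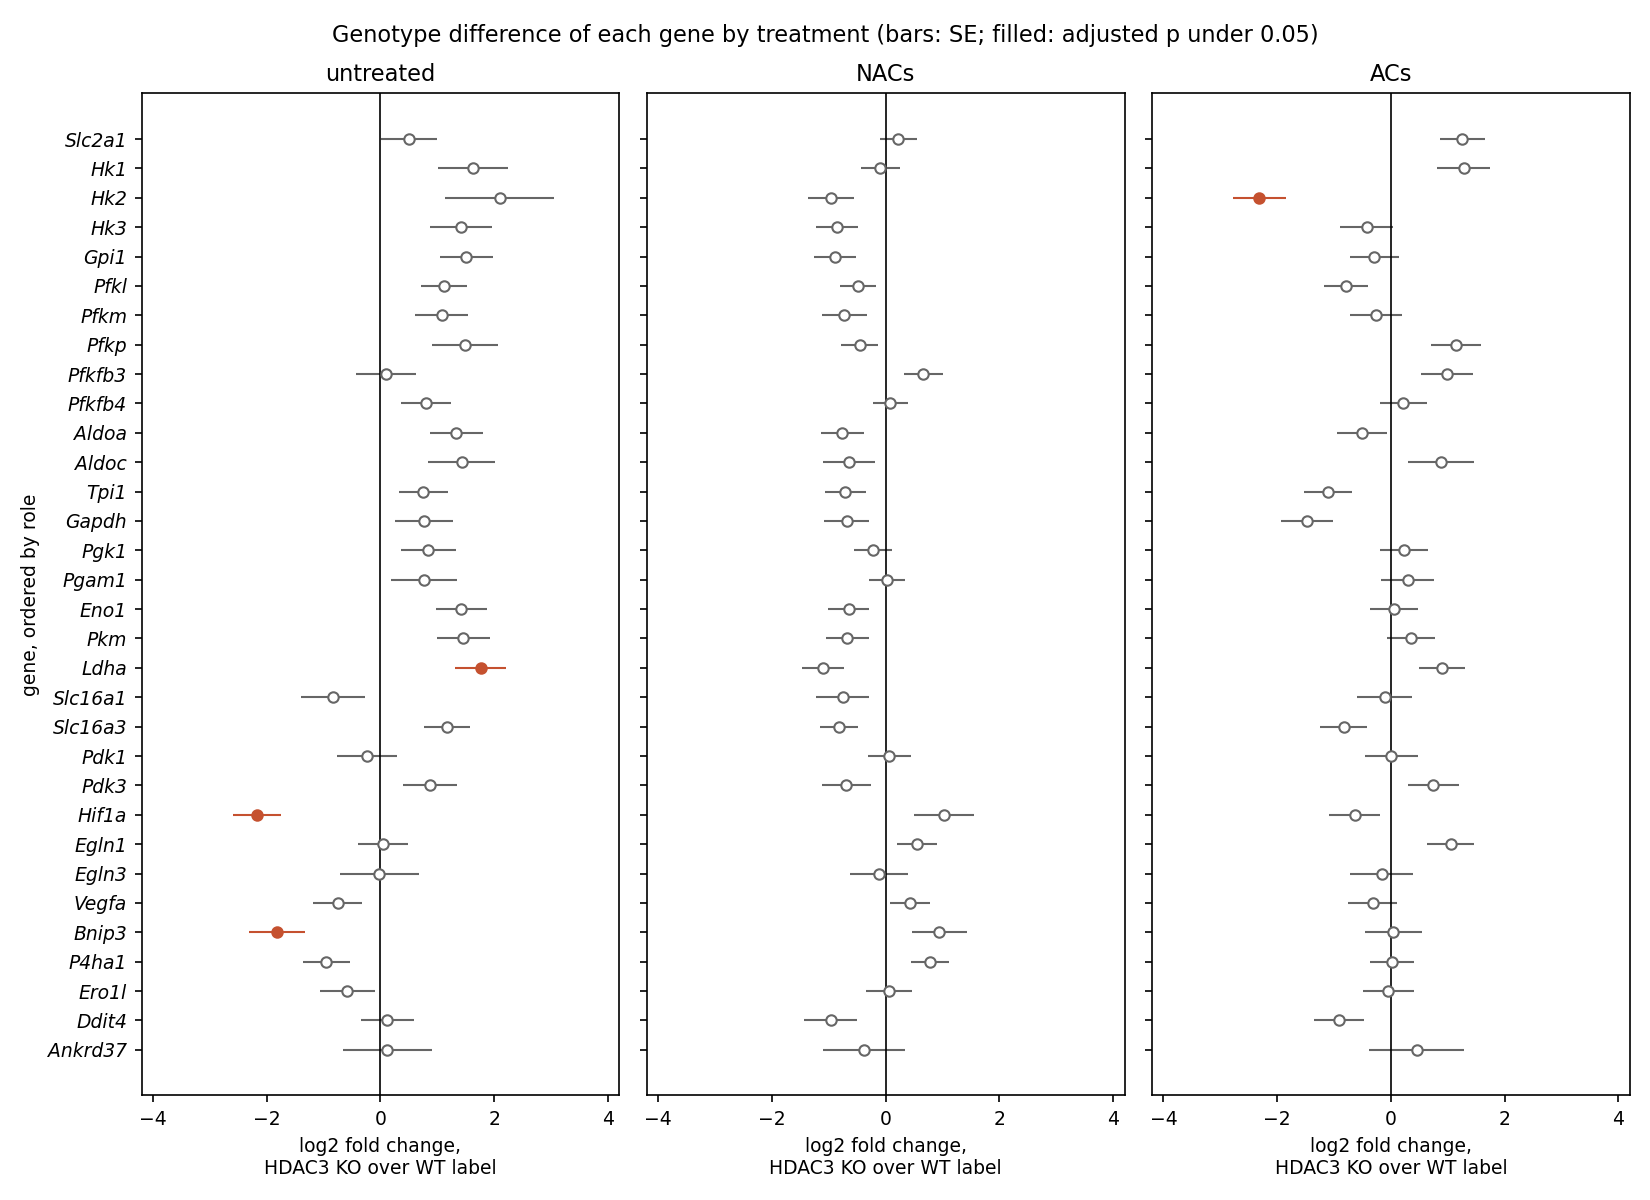
Log2 fold change of each of the 32 genes, libraries labelled HDAC3 KO over those labelled WT, untreated, with NACs and with ACs. Bars are the SE, and filled points have an adjusted p under 0.05: Hif1a, Ldha and Bnip3 untreated, Hk2 with ACs and no gene with NACs.

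With NACs, where macrophages met living K562 cells, 0 of 32 members passed edgeR's quasi-likelihood test between the labels, against 0.864% of 11923 genes, and 7 had an unadjusted p under 0.05, against 24.2% of all genes. DESeq2's Wald test called 1, and no share of all genes is given for that test. Ldha measured 1043, 525 and 1238 CPM in libraries labelled WT and 412, 468 and 397 CPM in those labelled HDAC3 KO. All 3 values under the HDAC3 KO label were below those under the WT label, with a fold change of -1.10 ± 0.37 and an adjusted p of 0.111. Hif1a was split under the WT label, at 11.6, 53.6 and 12.4 CPM, and even under the HDAC3 KO label, at 56.8, 44.2 and 55.7 CPM. WT NACs library 2 resembled the libraries labelled HDAC3 KO and libraries 1 and 3 were far below, which left a fold change of 1.03 ± 0.53 with an adjusted p of 0.241.

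Bnip3 followed the same split, with 2.35, 11.6 and 3.23 CPM and 12.5, 8.36 and 11.8 CPM under the WT and HDAC3 KO labels and a fold change of 0.95 ± 0.48 (adjusted p = 0.229). P4ha1 had 27.1, 61.2 and 36.9 CPM against 80.8, 61.5 and 68.9 CPM, with a fold change of 0.78 ± 0.34 (adjusted p = 0.173). For P4ha1, but not for Bnip3, the groups did not overlap. The stress-induced mTORC1 inhibitor Ddit4 had -0.97 ± 0.46 (adjusted p = 0.204) and Hk2 -0.96 ± 0.41 (adjusted p = 0.169). Leaving out single libraries gave -1.41 to -0.56 for Ddit4, -1.76 to -0.65 for Hk2, 0.62 to 2.08 for Bnip3 and 0.58 to 1.26 for P4ha1. Over the alternative analyses P4ha1 ran from 0.27 to 1.03. Over the members the median log2 fold change was -0.47, and over all genes it was -0.00. With library totals as the scaling these were -0.13 and 0.31, the member median was -0.30 with the GC and length offset, and it ran from -0.52 to -0.20 without single libraries. The groups of 8 members did not overlap, as for 26.9% of all genes. Without WT NACs library 2, the number of members called went from 0 to 9, among 3121 genes in all, and Hif1a reached 2.25 with an adjusted p of 0.00409.

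**Figure D3:**
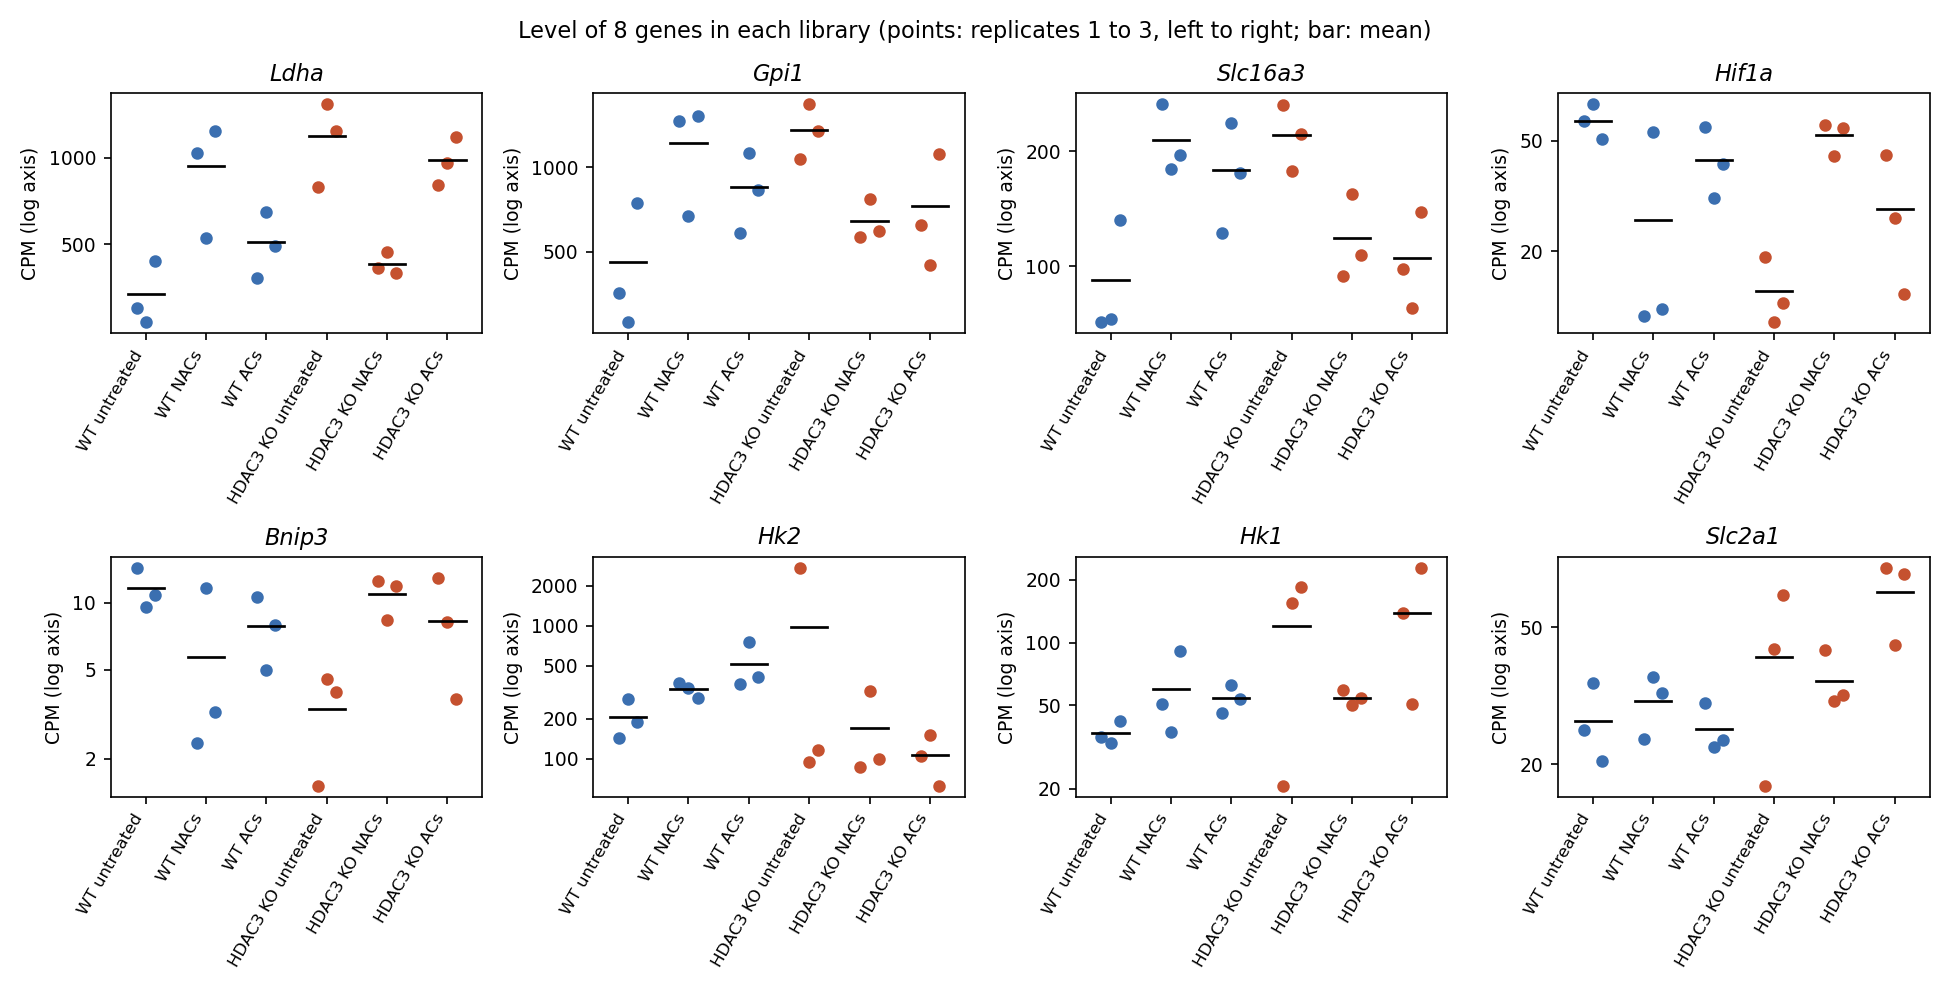
Level of 8 genes in each library in CPM on a log axis, with blue points for the WT label, orange points for the HDAC3 KO label and a bar at the group mean. Ldha is high and Hif1a low in the HDAC3 KO untreated group, in WT NACs libraries 1 and 3 and in HDAC3 KO ACs library 3 (Ldha is 806 to 1183 CPM in all 3 HDAC3 KO ACs libraries), and Hk2 has a single point at 2715 CPM in HDAC3 KO untreated library 1.

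Libraries with NACs were next compared with untreated ones within each label. No coculture or keeping time is recorded for the untreated libraries, so contact with living cells and handling cannot be told apart. Under the WT label 4 of 32 members rose, where 4.19% of the 11912 genes tested rose and 8.52% passed the test in either direction. They were Ldha, Gpi1, Slc16a3 and Aldoc, the aldolase of brain. Ldha had a log2 fold change of 1.43 ± 0.44 with an adjusted p of 0.0338, from the untreated and NACs levels given above, which did not overlap. Gpi1 went from 356, 281 and 749 CPM untreated to 1454, 671 and 1515 CPM with NACs. NACs library 2 lay within the untreated range, and the fold change was 1.36 ± 0.44 with an adjusted p of 0.0427. Slc16a3 went from 71.3, 72.5 and 132 CPM to 265, 179.7 and 195 CPM, without overlap, at 1.17 ± 0.40 and an adjusted p of 0.0474. Aldoc, at 3.91, 2.32 and 2.91 CPM and 10.1, 2.82 and 12.7 CPM, was high in NACs libraries 1 and 3 alone, at 1.42 ± 0.47 and an adjusted p of 0.0432.

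Most other glycolytic genes under the WT label had estimates of the same sign, and Pfkfb3 went the other way (-0.67 ± 0.39). All 5 payoff genes and 11 of 12 preparatory genes had positive log2 fold changes with NACs, and with library totals as the scaling 4 and 10 did. Library totals moved the median of all genes from -0.10 to -0.47, and 5 payoff and 11 preparatory genes lay above that median under both scalings. Under the GC and length offset 4 and 10 had positive fold changes, with the median of all genes at 0.02. Pkm went from 1207, 1113 and 1728 CPM untreated to 3650.0, 2137 and 3779 CPM with NACs, without overlap, but its adjusted p was 0.07. Hif1a, by contrast, had -1.25 ± 0.46, also short of the threshold with an adjusted p of 0.0741. In 11 members the groups did not overlap, against 29.7% of all genes. The 4 calls were lost, leaving 0 members (edgeR's quasi-likelihood test), without WT untreated library 1 or 2 or WT NACs library 1 or 3. With the GC and length offset, library totals, no filter or all 18 libraries in 1 fit 0 members passed as well. Without WT NACs library 2, 16 members and 4232 genes in all passed. Over the fits without single libraries Ldha had log2 fold changes of 1.15 to 1.76, Gpi1 1.14 to 1.81, Aldoc 0.97 to 1.88 and Slc16a3 0.95 to 1.45. With the offset Ldha was at 1.28, Aldoc at 0.97, Gpi1 at 0.80 and Slc16a3 at 0.51. Of 5 B cell markers tested, Cd79b rose (1.63 ± 0.48, adjusted p = 0.0308), and its part was not tested. In the mean GC content of counted genes WT NACs libraries spanned 53.6% to 54.7%, above the 52.5% to 53.0% of WT untreated libraries.

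In libraries labelled HDAC3 KO, 3 of 32 members changed with NACs, against 6.54% of the 12143 genes tested, 6.2% higher and 0.338% lower. Hif1a rose by 2.05 ± 0.38 on the log2 scale (adjusted p = 0.0353) and Bnip3 by 1.84 ± 0.47 (adjusted p = 0.0478). Ldha fell by 1.31 on the log2 scale (adjusted p = 0.0473). For each of the 3 genes the untreated and NACs groups did not overlap, as for 12 members in all and 38.7% of all genes. All 12 preparatory and all 5 payoff genes had negative estimates, and with library totals as the scaling 10 and 3 did. Library totals moved the median of all genes from -0.03 to 0.30, and 11 preparatory and 5 payoff genes lay below that median under both scalings. Under the GC and length offset 10 and 3 had negative estimates, with the median of all genes at -0.08. Gpi1 went from 1067, 1671 and 1340.0 CPM untreated to 566, 768 and 592 CPM with NACs, without overlap, at -0.92 ± 0.31 with an adjusted p of 0.0889. The Hk2 estimate of -2.45 ± 1.15 again carried the 2715 CPM of untreated library 1. Without that library 16 members and 4441 genes in all passed, and without any other of the 6 libraries, or with the GC and length offset, 0 did. DESeq2's size factors and a replicate block each left 0 as well. Leaving out single libraries gave log2 fold changes of 1.89 to 2.27 for Hif1a, 1.498 to 2.12 for Bnip3 and -1.57 to -1.05 for Ldha. With the offset Hif1a moved to 0.76 (adjusted p = 0.283), Bnip3 to 1.71 (0.156) and Ldha to -1.25 (0.139). Lyz2 was 1 of 10 macrophage markers that rose here (2.12 ± 0.46, adjusted p = 0.0376). The stroma sum was 151 to 210.0 CPM untreated and 17.3 to 89.3 CPM with NACs, and the B cell sum 60.3 to 119 CPM and 31.0 to 57.5 CPM, both without overlap. The mean GC content of counted genes was 54.2% to 55.3% untreated and 52.8% to 53.4% with NACs, also without overlap. The part of these cells and of GC content in the Hif1a, Bnip3 and Ldha differences was not tested beyond the offset.

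The difference between these 2 responses was tested as an interaction of label and treatment. 11 of 32 members passed, 3 higher and 8 lower, where 34.8% of the 13005 genes tested did, 22.1% higher and 12.8% lower. An interaction below 0 means that the response to NACs was lower under the HDAC3 KO label than under the WT label. The count of 11 in 32 is close to the share of all genes and does not set the members apart. The 8 lower ones were 4 of 12 preparatory genes, 2 of 5 payoff genes and 2 of 5 genes of pyruvate and lactate fate, and Tpi1, Gapdh, Pgk1 and Pgam1 did not pass. Ldha had the largest of these, -2.62 ± 0.53 (adjusted p = 0.00169). Among preparatory enzymes Gpi1 had -2.17 ± 0.56 (adjusted p = 0.00652), Hk3 -2.02 ± 0.63 (adjusted p = 0.019), Aldoa -1.86 ± 0.54 (adjusted p = 0.0118) and Pfkl -1.40 ± 0.48 (adjusted p = 0.0288). In the payoff phase Pkm had -1.88 ± 0.53 (adjusted p = 0.0109) and the enolase Eno1 -1.82 ± 0.52 (adjusted p = 0.0108). Slc16a3 had -1.79 ± 0.48 (adjusted p = 0.00846). The 3 higher members are Hif1a (3.43 ± 0.70, adjusted p = 0.00185), Bnip3 (3.01 ± 0.75, adjusted p = 0.00553) and P4ha1 (1.96 ± 0.54, adjusted p = 0.00992).

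The levels behind the interaction show the crossing. Pkm was at the untreated and NACs levels above under the WT label, and at 2424, 5168 and 4009 CPM and 1818, 1931 and 2116 CPM under the HDAC3 KO label. Aldoa was at 1055, 928 and 2093 CPM and 3852, 2297 and 3927 CPM, then 2647, 4368 and 3677 CPM and 1605, 2377 and 1853 CPM. In both genes the WT NACs and HDAC3 KO untreated groups had the higher means. Eno1 repeated this with 611, 471 and 755 CPM and 1580.0, 954 and 1646 CPM, then 1043, 2128 and 1996 CPM and 878, 886 and 839 CPM. Slc16a3 under the HDAC3 KO label was at 264, 177 and 221 CPM untreated and 94.4, 155 and 107 CPM with NACs, and the highest NACs library stayed below the lowest untreated one.

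Hk3 and Pfkl had the highest adjusted p of the 8. Hk3, the hexokinase of myeloid cells, had 147, 192 and 518 CPM and 616, 442 and 1042 CPM under the WT label and 517, 1221 and 577 CPM and 285, 500.1 and 358 CPM under the HDAC3 KO label. Pfkl had 100.5, 61.8 and 112 CPM and 217, 134 and 171 CPM, then 217, 157 and 268 CPM and 122, 128 and 114 CPM. The Hk3 groups overlapped under the WT label and the Pfkl groups did not under either. P4ha1 had the reverse shape, with 73.1, 63 and 62.6 CPM and 27.1, 61.2 and 36.9 CPM, then 24.9, 31.7 and 54.8 CPM and 80.8, 61.5 and 68.9 CPM. Leaving out single libraries gave 9 to 21 members called, the 21 without HDAC3 KO untreated library 1. Over these fits 3043 to 6297 genes in all passed. With the GC and length offset 6 members passed, of which 2 were among the 11: Ldha at -2.52 (adjusted p = 0.00801) and Bnip3 at 2.80 (adjusted p = 0.0252). The 4 gained were Pdk3 (-3.34, adjusted p = 0.0137), Pfkp (-2.48, 0.0279), Pgk1 (-1.92, 0.0294) and Vegfa (2.20, 0.047). The other 9 lost their calls, and no share of all genes is given for the offset fit. Hif1a moved to 1.51 (adjusted p = 0.0823) and P4ha1 to 0.37 (0.608). The glycolytic genes moved towards 0, to -0.28 for Pfkl, -0.70 for Aldoa, -0.80 for Slc16a3, -0.95 for Eno1, -1.06 for Pkm, -1.31 for Hk3 and -1.32 for Gpi1, with adjusted p from 0.0659 to 0.679. P4ha1 lost its call without WT untreated library 1, WT NACs library 1 or WT NACs library 3 (adjusted p of 0.0519, 0.0658 and 0.0524), Hk3 without HDAC3 KO NACs library 1 (0.0528) and Pfkl without that library or WT untreated library 2 (0.06 and 0.0534). Markers of other cells moved with this interaction as well. Of 6 B cell markers tested 3 were lower (Cd79a, Cd79b and Blnk), and the B cell sum was 30.5 to 56.5 CPM in WT untreated, 51.6 to 69.9 in WT NACs, 60.3 to 119 in HDAC3 KO untreated and 31.0 to 57.5 CPM in HDAC3 KO NACs libraries. Of 10 macrophage markers Lyz2 (3.38 ± 0.74, adjusted p = 0.00285) and Itgam were higher and Cd14 was lower. Batf3 of 2 dendritic cell markers tested (-2.79 ± 0.94), Ltf of 12 granulocyte markers (-1.85 ± 0.63) and Pdgfrb of 9 stroma markers (-2.15 ± 0.75) were lower. Their part in the member interactions was not tested.

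**Figure D4:**
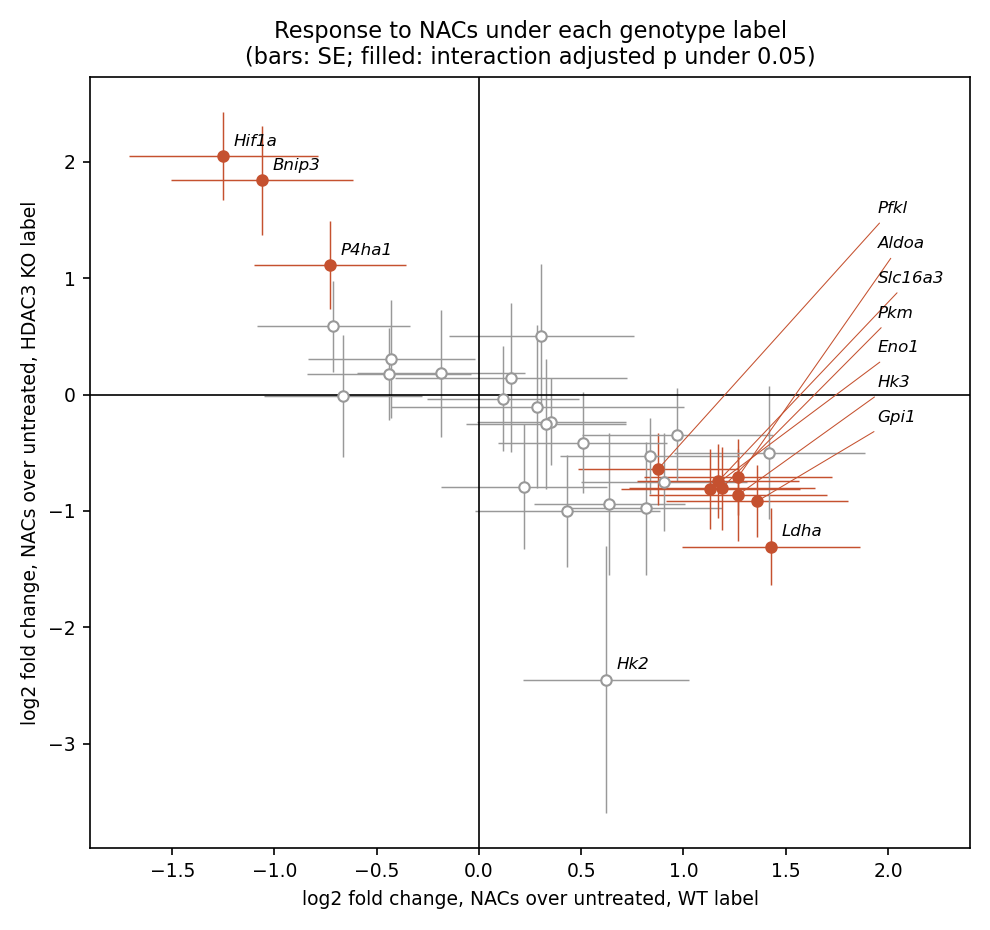
Log2 fold change of NACs over untreated in libraries labelled WT (horizontal) and labelled HDAC3 KO (vertical) for 32 genes, with SE bars. Filled points have an adjusted interaction p under 0.05: 3 lie at upper left, led by Hif1a, and 8 at lower right, led by Ldha.

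Levels are also given for members without a call in the fits as reported. Vegfa, which drives vessel growth, had 39.2, 50 and 32 CPM in WT untreated libraries, 15.9, 39.8 and 22 CPM after NACs and 26.8, 22.9 and 57.8 CPM after ACs. Its HDAC3 KO levels in that order were 34.2, 26.9 and 16.6 CPM, 34.1, 28.3 and 40.4 CPM and 28.7, 23.2 and 37.3 CPM. The groups overlapped in every comparison made. Its interaction of label with NACs or no treatment, 1.44 ± 0.58, had an adjusted p of 0.0567, and with the GC and length offset it passed, at 2.20 (adjusted p = 0.047, edgeR's quasi-likelihood test). Pdk1, a kinase that inhibits pyruvate dehydrogenase, had 8.01, 11.8 and 9.00 CPM, 5.38, 12.3 and 8.76 CPM and 9.01, 7.99 and 7.46 CPM under the WT label in the same order. Under the HDAC3 KO label it had 17.8, 4.39 and 5.52 CPM, 9.08, 8.76 and 9.41 CPM and 14.1, 5.51 and 6.01 CPM, and again the groups overlapped in each comparison. Pfkfb3, which makes the activator of phosphofructokinase, had 15.6, 30.1 and 18.2 CPM, 11.4, 18.7 and 12.3 CPM and 15.7, 21.6 and 21 CPM under the WT label. In HDAC3 KO libraries it had 11.8, 14.6 and 49.4 CPM, 22.4, 17.6 and 25.6 CPM and 68.2, 17.3 and 35.9 CPM, with 1 high library in the untreated group and 1 in the ACs group. Egln1, chosen after its values were seen, lay between 7.95 and 20.1 CPM in the 15 libraries without HDAC3 KO ACs and at 34.5, 23.6 and 21.4 CPM in that group, with a log2 fold change over WT ACs of 1.05 ± 0.42 that missed the threshold (adjusted p = 0.13).

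The levels with ACs of the members called elsewhere complete the series. Hif1a had 55.8, 31.1 and 41.2 CPM under the WT label and 44.5, 26.4 and 14 CPM under the HDAC3 KO label, and Bnip3 had 10.6, 4.99 and 7.91 CPM and 12.9, 8.15 and 3.71 CPM. In both genes HDAC3 KO ACs library 3 was low, near the HDAC3 KO untreated levels, and the groups overlapped. P4ha1 had 70.6, 60.8 and 53.1 CPM and 83.8, 55.8 and 54 CPM, also with overlap. Gpi1 had 585, 1124 and 832 CPM and 624, 449.9 and 1115 CPM, Hk3 323, 735 and 676 CPM and 332, 237 and 789.9 CPM, and Aldoa 1726, 3559 and 2542 CPM and 1642, 1322 and 2826 CPM. Each of these overlapped between the labels, and HDAC3 KO ACs library 3 was the highest of its group. Eno1 had 788, 1395 and 878 CPM and 915, 774 and 1646 CPM, Pkm 1548, 2414 and 1822 CPM and 2255, 1633 and 3877 CPM, and Aldoc 4.82, 4.67 and 1.36 CPM and 6.04, 2.94 and 12.2 CPM, with the same overlap and the same highest library. Pfkl had 137, 223 and 169 CPM and 108, 84.5 and 126 CPM without overlap, and Slc16a3 had 122, 237 and 175 CPM and 98.5, 77.9 and 138 CPM with overlap. Hk1 had 35.4, 32.9 and 42.2 CPM untreated, 50.6, 37.1 and 91.3 CPM after NACs and 46, 62.5 and 53.7 CPM after ACs under the WT label, and 20.6, 155 and 184 CPM in HDAC3 KO untreated libraries, where library 1 was the low one. Aldoc under the HDAC3 KO label had 2.26, 12.8 and 10.2 CPM untreated and 7.54, 4.38 and 3.98 CPM after NACs, and these overlapped.

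ACs were also compared with NACs, the contrast between engulfing dying cells and meeting living ones. Under the WT label 0 of 32 members and 0% of the 11844 genes passed edgeR's quasi-likelihood test. The groups of 1 member did not overlap, as for 10.4% of all genes. At an unadjusted p under 0.05 no member and 4.16% of genes passed, and DESeq2's Wald test likewise called 0 members. Ldha measured 1043, 525 and 1238 CPM with NACs and 382, 648 and 493 CPM with ACs, and the groups overlapped. Under the HDAC3 KO label 2 of 32 members rose with ACs, Ldha and Hk1, where 2.65% of the 12244 genes tested rose and 7.38% passed in either direction. Ldha went from 412, 468 and 397 CPM with NACs to 806, 958 and 1183 CPM with ACs, without overlap, at 1.22 ± 0.38 with an adjusted p of 0.0456. Hk1 (ENSMUSG00000037012, chr10:62268855-62379908, minus strand) went from 59.2, 50.1 and 54.3 CPM to 138, 51 and 228 CPM, where ACs library 2 stayed at the NACs level, at 1.35 ± 0.43 with an adjusted p of 0.0491.

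Both calls sat close to the threshold. Without HDAC3 KO ACs library 2, 7 members and 3013 genes in all passed, and without any other of the 6 libraries 0 did. Stroma markers moved with this contrast, since 4 of the 9 tested rose (Col1a2 at 2.48 ± 0.59 with an adjusted p of 0.0251, with Col3a1, Pdgfrb and Sparc) and the 10 markers summed to 17.3 to 89.3 CPM with NACs and 156 to 367 CPM with ACs. The B cell marker Blnk (1.34 ± 0.37, adjusted p = 0.0277), 1 of 5 tested, and the granulocyte marker Ltf (1.38 ± 0.41, adjusted p = 0.0382), 1 of 12, rose as well, and the B cell sum was 31.0 to 57.5 CPM with NACs and 70.7 to 136 CPM with ACs. The part of these cells in the Ldha and Hk1 differences was not tested. With the GC and length offset Ldha stood at 1.07 (adjusted p = 0.0341), Hk1 lost its call, at 1.02 (0.118), and Pdk3 gained one, at 2.66 (0.0209). In the fit as reported Pdk3 had 1.24 ± 0.45 (adjusted p = 0.0807, edgeR's quasi-likelihood test). Both calls were lost with DESeq2's size factors, library totals and all 18 libraries in 1 fit, where Ldha had adjusted p of 0.0505, 0.0554 and 0.0904. Under this label the median log2 fold change of the members was 0.22 and that of all genes 0.09. With library totals as the scaling these were -0.01 and -0.07, with 20 of 32 members above the median of all genes under both scalings, and with the GC and length offset they were -0.02 and 0.05, with 14 above. The interaction of label with ACs or NACs gave 0 members called by edgeR's quasi-likelihood test, against 0.0765% of 13076 genes. It had 7 members and 20% of genes at an unadjusted p under 0.05. It gave 1 member by DESeq2's Wald test, for which no share of all genes is given. Its largest estimate was that of Ldha, 2.09 ± 0.52 with an adjusted p of 0.062, and edgeR called 3 members without HDAC3 KO ACs library 2, 2 without WT NACs library 2 and 1 without WT ACs library 2. Over the fits without single libraries 0 to 826 genes in all passed. With the GC and length offset 2 members passed, Ldha at 1.79 (adjusted p = 0.039) and Pdk3 at 2.83 (0.0444).

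ACs compared with no treatment called no member in either label by edgeR's quasi-likelihood test, and 0% of the 12199 and 12136 genes tested. Under the WT label 4 members had an unadjusted p under 0.05 and under the HDAC3 KO label 6 did, against 12.7% and 14.5% of all genes, and DESeq2's Wald test called 0 in each. Hk2 under the WT label was at 144, 281 and 189.5 CPM untreated and 365, 756 and 411 CPM with ACs, and the NACs libraries had 369, 339.9 and 288 CPM. The ACs group lay above the untreated group without overlap, as it did for 7 members and 7.16% of all genes, but the fold change of 1.21 ± 0.39 had an adjusted p of 0.393. Under the HDAC3 KO label Hk2 with NACs was at 86.3, 323 and 100.4 CPM, close to the 104, 151 and 62.5 CPM with ACs apart from NACs library 2. The interaction of label with ACs or no treatment called 0 members by edgeR and 0% of 13225 genes. At an unadjusted p under 0.05 it had 11 members and 24.1% of genes. DESeq2's Wald test called 6 members, but no share of all genes is given for it, so that count does not set the members apart. Without WT untreated library 3 edgeR called 3 members, and without HDAC3 KO ACs library 3 it called 6. Over the fits without single libraries 0 to 1100 genes in all passed. The untreated and NACs groups enter several of these comparisons, so their values are not independent.

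Glycolysis as a share of the transcriptome was described from the 9 enzymes Gpi1, Aldoa, Tpi1, Gapdh, Pgk1, Pgam1, Eno1, Pkm and Ldha. They took 0.721%, 0.862% and 1.15% of the counts in WT untreated libraries, 1.42%, 1.23% and 1.87% in WT NACs libraries and 1.14%, 1.81% and 1.48% in WT ACs libraries. Among HDAC3 KO libraries the untreated group had 1.03%, 1.77% and 1.52%. The corresponding shares after NACs were 1.01%, 1.31% and 1.18%, and after ACs they were 1.02%, 0.763% and 1.26%. WT untreated libraries 1 and 2 had the smallest shares under the WT label, with library 3 level with WT ACs library 1, and HDAC3 KO untreated libraries 2 and 3 were the highest under theirs. The 3 libraries with the largest shares had a mean GC content of counted genes of 54.3% to 54.7%. The 3 with the smallest, WT untreated libraries 1 and 2 and HDAC3 KO ACs library 2, had 52.6%, 52.5% and 53.1%.

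**Figure D5:**
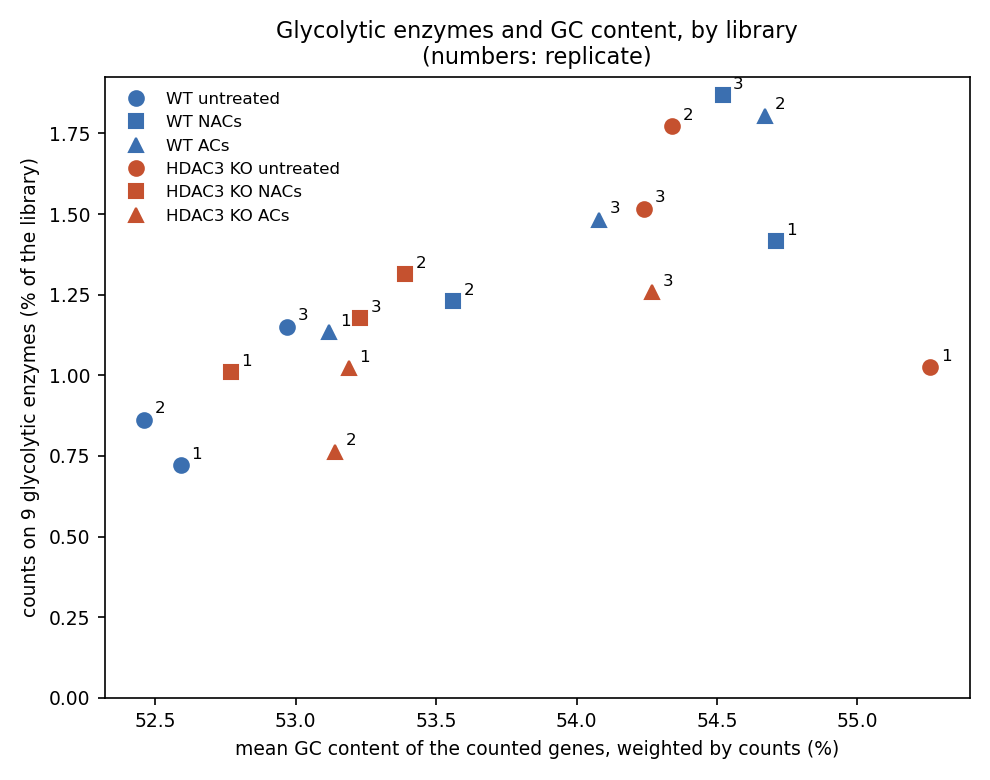
Share of library counts on 9 glycolytic enzymes (vertical, %) against the mean GC content of the counted genes weighted by counts (horizontal, %), with 1 point per library and its replicate number beside it. WT untreated libraries 1 and 2 have the lowest GC values, at 52.6% and 52.5%, with shares of 0.721% and 0.862%, and HDAC3 KO untreated library 1, at 55.3% GC, has a share of 1.03%, below the libraries at 54.2% to 54.7% GC.

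Genes of the same pathways outside the 33 were counted for context from lists chosen together with the members. Of the other hypoxia-response genes, 29 of 35 were tested between the labels in untreated macrophages, and 4 were higher and 2 lower under the HDAC3 KO label, where 3.04% of all genes were higher and 8.56% lower. The 2 lower genes were the glycogen branching enzyme Gbe1 (-1.87 ± 0.46, adjusted p = 0.0311) and the histone demethylase Kdm3a (-1.52 ± 0.42, adjusted p = 0.0387). Among the higher ones was the collagen lysyl hydroxylase Plod1 (1.56 ± 0.47, adjusted p = 0.0497). Of 25 tested genes among 30 others of glycolysis and pyruvate, 2 passed in that comparison and both were lower. They were Mpc1, a subunit of the mitochondrial pyruvate carrier (-2.58 ± 0.58, adjusted p = 0.0265), and Pdha1, the alpha subunit of pyruvate dehydrogenase (-1.64 ± 0.40, adjusted p = 0.0305). Mpc1 serves the entry of pyruvate into the mitochondrion and Pdha1 its oxidation. These 2 of 25 are near the 8.56% of all genes that were lower, and 16 of the 25 had positive estimates. A link to the Ldha difference was not tested. Of the 10 pentose phosphate genes tested, Rpe was lower (-1.75 ± 0.49, adjusted p = 0.0401) and no other passed, against 11.6% of all genes in either direction. The sum of the 10 went the other way without overlap, at 1938 to 3139 CPM in WT untreated and 4073 to 4963 CPM in HDAC3 KO untreated libraries.

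Mpc1 and Pdha1 also passed in the response to NACs, in numbers near the share of all genes. Under the WT label Mpc1 fell by 1.41 on the log2 scale (adjusted p = 0.0258) and Pdha1 by 1.45 (adjusted p = 0.0261), the 2 called of 24 tested, where 8.52% of all genes passed. In libraries labelled HDAC3 KO, Mpc1 rose by 2.41 ± 0.58 (adjusted p = 0.0435) and Pdha1 by 1.64 ± 0.36 (adjusted p = 0.0377), the 2 called of 26, where 6.54% of all genes passed. The interaction called 10 of 26 genes of this list, 6 higher and 4 lower, with Mpc1 at 3.96 ± 0.74, Pdha1 at 3.21 ± 0.60 and Slc16a7 at 3.20 ± 0.75. It called 12 of 30 other hypoxia-response genes, 5 higher and 7 lower, and 4 of 10 pentose phosphate genes, 2 in each direction, where 34.8% of all genes passed. Between the labels with ACs, the pentose phosphate gene Pgls was lower (-1.74 ± 0.41, adjusted p = 0.0311). For ACs over NACs under the HDAC3 KO label Rpe (-2.45 ± 0.44) and Mpc1 (-1.70 ± 0.43) were lower. Gpd1 (1.73 ± 0.48) and Epas1 (1.96 ± 0.48), of the glycolysis and hypoxia lists, were higher in that contrast, where 7.38% of all genes passed.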

How the data were processed

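RNA of BMDMs was sequenced and, per the study's methods, aligned to the mouse genome alone, although the cocultured K562 cells are human. Per the submitters' processing notes the tools were Trimmomatic 0.36, STAR 2.5.2b and Subread 1.5.2 (featureCounts), with GRCm38. The strand setting is not given in the sources used here. The deposited values are whole read counts per gene, not normalized, for 49315 Ensembl genes in each of 18 libraries. Of these identifiers 48970 are in GENCODE M21, and 44772 of them, 28 members among them, have the same start and end there. Replicate numbers come from the labels, and the authors' counts used no molecular identifiers. Totals were 4704491 to 26421267 per library.

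For each comparison all genes were fitted over the libraries of its groups in R 4.3.3 with edgeR 4.0.16 (filterByExpr with minimum count 10 and minimum total count 15, TMM scaling, glmQLFit robust, glmQLFTest), with Benjamini-Hochberg adjustment and a threshold of 0.05. SE is the absolute log2 fold change divided by the square root of F. CPM used TMM over 18 libraries, and groups do not overlap where all 3 CPM values of one exceed all 3 of the other. GC content and length came from GENCODE M21 transcripts, and the offset was fitted with mgcv 1.9.3. Alternatives were DESeq2 1.42.0 size factors and Wald test, library totals, limma-voom (limma 3.58.1), other filters, all libraries in 1 fit, a replicate block, the GC and length offset and leaving out each library. Tests were also run on simulated counts, whose outcome is not given here. Named are every member called, the 3 largest and 3 smallest fold changes between the labels, and 4 fixed genes (Slc2a1, Pfkfb3, Pdk1 and Vegfa), with Egln1 and members called in alternatives alone added after their values were seen; levels in every library are given for all members called. The members and lists were chosen with earlier results of these data known. Single exons and reads were not analysed here.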

Additional observations from a re-analysis of the deposited data

Results flagged for a closer look

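The effect of the label with NACs differed from that in untreated macrophages, by the interaction test, in 11 genes. On the log2 scale the effect with NACs minus that without treatment was -2.62 for Ldha, -2.17 for Gpi1, -2.02 for Hk3, -1.88 for Pkm, -1.86 for Aldoa, -1.82 for Eno1, -1.79 for Slc16a3 and -1.40 for Pfkl. It was 3.43 for Hif1a, 3.01 for Bnip3 and 1.96 for P4ha1. Of all genes tested, 34.8% passed the same test. With the GC and length offset 2 of the 11 kept their calls, Ldha and Bnip3, and Hif1a was at 1.51 (adjusted p = 0.0823) and P4ha1 at 0.37 (0.608), by edgeR's quasi-likelihood test.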

How the results depend on the processing

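The number of members called between the labels with ACs, 1 as reported, was 2 with library totals, with no filter and with a minimum of 10 counts in each library, 3 by DESeq2's Wald test, 5 with the GC and length offset and 0 with all 18 libraries in 1 fit. With NACs, where 0 were called by edgeR, it was 1 by the Wald test and 1 with the replicate block. Untreated, where 3 were called, it was 7 with DESeq2's size factors, 13 by the Wald test, 8 with limma-voom, 6 with no filter, 12 with all 18 libraries and 0 with the GC and length offset, with or without the block. For NACs over untreated it was, under the WT label (4 as reported), 8 by the Wald test, 7 with the minimum of 10 counts, 1 with limma-voom, 9 with the replicate block and 0 with library totals, no filter, all 18 libraries or the offset, with or without the block. Under the HDAC3 KO label (3 as reported) it was 5 by the Wald test, 1 with the minimum of 10 counts and 0 with DESeq2's size factors, the replicate block or the offset, with or without it. For ACs over NACs under the HDAC3 KO label (2 as reported) it was 1 with limma-voom and 0 with DESeq2's size factors, library totals or all 18 libraries, and for ACs over untreated under the WT label (0 by edgeR) it was 1 with the offset and block together. The interaction of label with NACs or no treatment (11 as reported) gave 18 by the Wald test, 11 with the block and 6 with the offset, with or without the block, and 2 of the 6 with the offset alone were among the 11. Those with ACs gave 1 by the Wald test, 1 with no filter and 2 with the offset against NACs, and 6 by the Wald test against untreated. Shares of all genes in these alternative fits are mostly not given, so the counts do not set the members apart. The cause of these shifts was not tested.

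Leaving out each library in turn gave 0 to 5 members between the labels with ACs, 0 to 9 with NACs and 0 to 24 untreated, 0 to 7 for ACs over NACs under the HDAC3 KO label, 0 to 16 for NACs over untreated under each label, and 0 to 3, 0 to 6 and 9 to 21 for the interactions of ACs with NACs, ACs with untreated and NACs with untreated. Between the labels, genes in all ran from 0 to 1693 with ACs, 0 to 3121 with NACs and 0 to 5887 untreated. For ACs over NACs under the HDAC3 KO label they were 0 to 3013. NACs over untreated gave 21 to 4232 genes under the WT label and 0 to 4441 under the HDAC3 KO label. The interactions gave 0 to 826, 0 to 1100 and 3043 to 6297 genes in the same order. The Hk2 difference between the labels untreated, 2.10, ran from -1.14 (without HDAC3 KO untreated library 1) to 2.68 (without library 2 of that group) and was -0.051 with the offset and block together. Library totals moved the median of all genes by -0.48 between the labels untreated and by 0.58 in the interaction of label with NACs or no treatment. Same-numbered libraries showed no steady pairing. Their deviations from the group means correlated at -0.33 to 0.461, above 0.1 in 6 of 27 pairs. In 13 of 54 checks, each of 1 library within 1 comparison, the best correlation was with the same number. Each group mean rests on 3 libraries, so this check cannot exclude that some libraries share an animal.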
